A study of Homo sapiens with 21 samples.

Results

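The keratins of basal epithelial cells and of injured epithelium were followed through 20 days of TGFβ in HMLE cells. They were taken by symbol from a normalised read count table of 23201 genes, and 8 genes made up the set: KRT5, KRT14, KRT15, KRT6A, KRT6B, KRT6C, KRT16 and KRT17. HMLE is an established line of immortalised human mammary epithelial cells. Total RNA was sequenced from untreated cells (d0) and from cells given TGFβ for 1, 4, 7, 10, 15 or 20 days (d1, d4, d7, d10, d15 and d20), with 3 libraries at each of the 7 timepoints. All groups were the same line seeded at one density and differed by label only in TGFβ and its duration. Untreated cells were measured at d0 only, so days in culture and days of TGFβ cannot be told apart.

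Keratins build the intermediate filaments of epithelial cells, and each filament is assembled from pairs of an acidic type I and a basic type II chain. KRT5 (type II) and KRT14 (type I) are the partner chains of basal cells in stratified epithelia and of the basal layer of the breast, and KRT15 is a further type I chain of basal cells. KRT6A, KRT6B and KRT6C (type II) and KRT16 and KRT17 (type I) are best known from skin wounds and inflamed epidermis, where they rise within the injured edge. TGFβ is a widely used inducer of epithelial-mesenchymal transition (EMT), during which vimentin filaments are gained.

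The RefSeq promoter table held 1 of the 8 members, KRT5, the member with the highest signal per coding length in untreated cells, and its upstream sequence is shown because KRT5 is the basal chain whose early fall is described here. The 250 bases before its start site (GRCh38.p14, chr12:52520395-52520644, minus strand, written 5′ to 3′ along the gene) are given with the match to a searched motif in capitals.
KRT5: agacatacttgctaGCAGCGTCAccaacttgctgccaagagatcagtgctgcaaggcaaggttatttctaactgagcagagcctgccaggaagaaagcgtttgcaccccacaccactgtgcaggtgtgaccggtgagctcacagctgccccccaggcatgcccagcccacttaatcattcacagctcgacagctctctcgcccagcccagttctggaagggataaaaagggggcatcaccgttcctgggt
The capitals mark 1 match to the NRF2 motif TGACNNNGC, on the opposite strand and starting at position -236 from the start site. This motif was present on either strand in 10.9% of the same 250-base window over 35116 promoters. The window held no letters matching AP-1 (TGANTCA, in 6.57% of promoters), SMAD (CAGAC, 38%), GRHL (AACCNGTT, 1.49%), AP-2 (GCCNNNGGC, 19.8%), KLF/SP (GGGCGG, 42.6%) or the TATA box (TATAAA, 10.7%), searched on both strands, and nothing about these factors follows from that. No motifs overlapped.

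Each library held between 18847917 and 22667754 reads. Members had from 8 to 45 reads per library for KRT6C and 132 to 981 for KRT6B up to 102567 to 282718 for KRT5. One library stood apart. The third d7 library (numbered by its place in the table) differed from the other d7 libraries by a root mean square of 0.47 and 0.46 on the log2 scale, against 0.22 between those libraries and 0.21 to 0.24 for libraries of the other timepoints. It differed by 0.43 from the d4 mean, 0.43 from the d20 mean and 0.45 from the mean of the other d7 libraries, so results at d7 are given with and without it. The cells carried the markers of their labelled type at d0, with all 6 basal markers (KRT5, KRT14, KRT17, TP63, CDH3 and ITGA6) and all 4 epithelial markers detected in every library. Of the basal markers, KRT5, KRT14 and KRT17 are themselves members of the set, and TP63, CDH3 and ITGA6 are not. Of the 8 luminal markers, KRT8 (4993 to 12238 reads per library), KRT18 (2645 to 8454), KRT19 (238 to 631), GATA3 (148 to 407), ESR1 (11 to 75) and FOXA1 (2 to 20) had reads in every library, while ELF5 had at most 1 read and PGR had 0. PTPRC and CD3E, which define white blood cells, and CDH5, which defines endothelium, had at most 1 read per library, whereas CD68 of the first list had 344 to 840 and PECAM1 and VWF of the second had 4 to 51 and 2 to 13. The 5 mesenchymal markers summed to between 9295 and 9701 at d0 and between 595358 and 613325 at d20.

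Normalised read counts, which are reads divided by 1 size factor per library, are used for levels throughout. A gene was called changed where it differed at least 2-fold with an adjusted p below 0.05 (limma on log2 of the count plus 1, Benjamini-Hochberg over 13343 genes with a mean of at least 10). All 8 members passed that filter. "Rose" and "fell" are used for an adjusted p below 0.05, whatever the fold.

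The 8 keratins did not move as a block. KRT15 fell within 1 day and stayed low. KRT6A was higher on every treated day and KRT6B was called lower from d10 on. The stress keratin KRT17 had its highest levels at d15 and d7, and most of the set was low at d10. Together the 8 genes took 2.1% ± 0.0506 (SD, n = 3) of all normalised reads in untreated cells, 1.57% ± 0.0177 after 1 day and 1.56% ± 0.0233 after 4 days. On d7 the share was between 1.85% and 3.85%, the lowest from the third library. It was 1.07% ± 0.00689 at d10, 2.78% ± 0.0355 at d15 and 1.38% ± 0.0124 at d20.

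**Figure D1:**
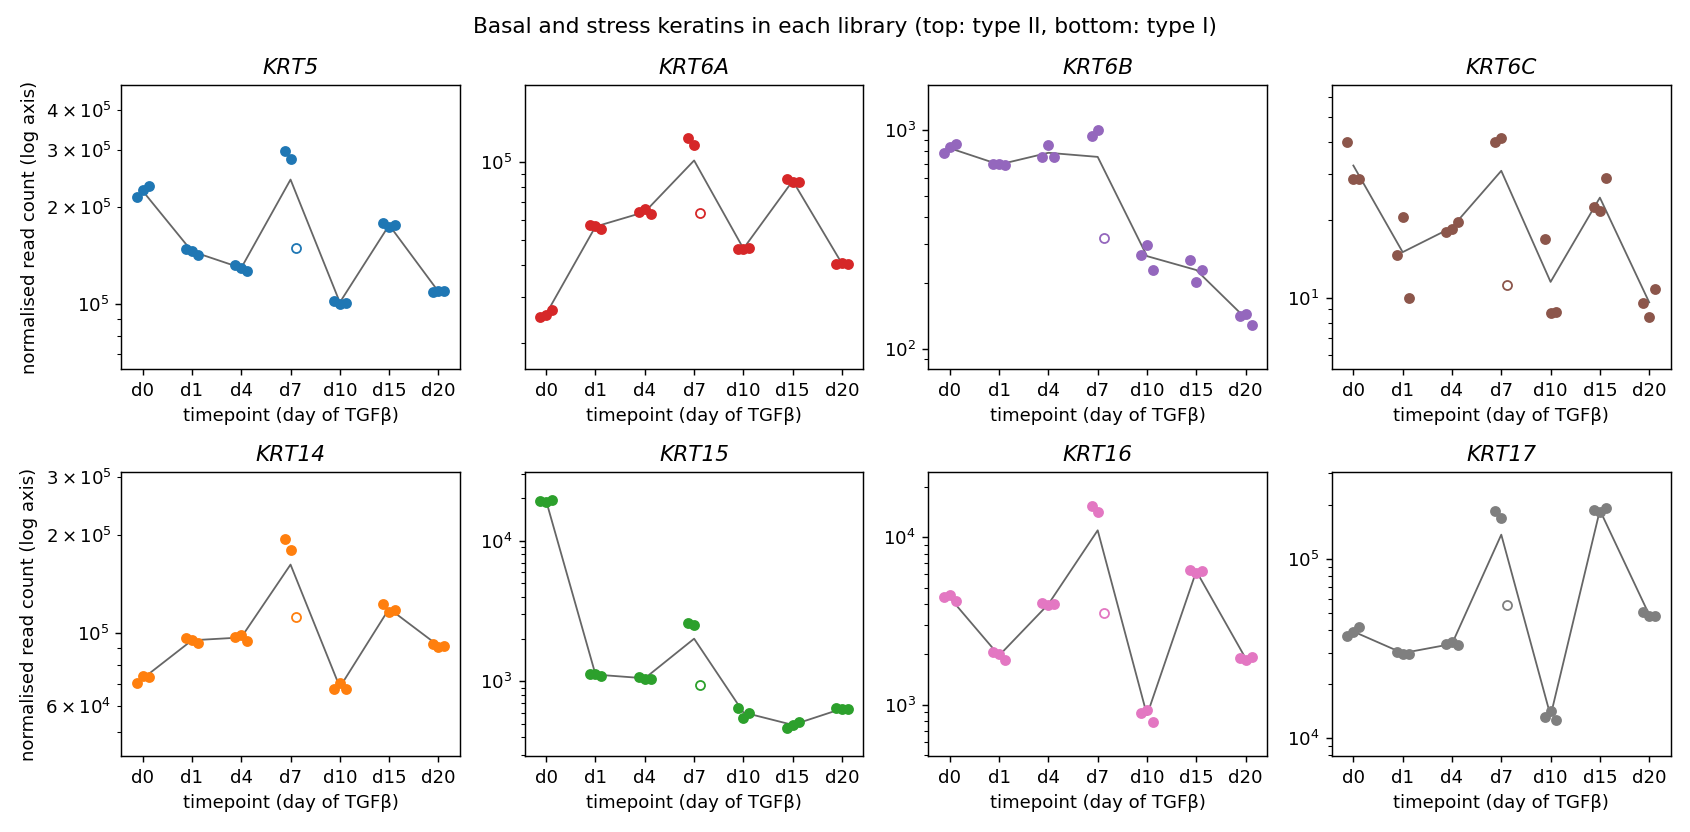
Normalised read count of each keratin (log axis, a separate scale for each panel) against timepoint. Points are single libraries, lines join the means of 3 libraries, and the open point is the third d7 library. KRT15 drops from about 19185 at d0 to 1119 at d1, and KRT16 and KRT17 peak at d7 and d15 with a trough at d10.

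Counted against untreated cells, members were called in both directions on 4 of the 6 treated days. At d1, 1 of 8 members was called higher (KRT6A) and 3 were called lower (KRT15, KRT6C and KRT16), where 6.47% of all genes tested were called higher and 3.87% lower. At d4, 1 was higher (KRT6A) and 1 lower (KRT15), against 9.68% and 5.03% of all genes. At d7, 4 were higher (KRT14, KRT6A, KRT16 and KRT17) and 1 lower (KRT15), against 8.79% and 2.93%. These were also the d7 calls without the third library, whereas 2 members were called higher without the first.

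At d10 and d20 the calls were all lower, and at d15 they went both ways. At d10 no member was called higher and 6 were called lower (KRT5, KRT15, KRT6B, KRT6C, KRT16 and KRT17), against a background of 6.94% and 7.34%. After 15 days 2 members were higher (KRT6A and KRT17) and 2 lower (KRT15 and KRT6B), against 11.7% and 8.66%. At d20 no member was called higher and 5 were lower (KRT5, KRT15, KRT6B, KRT6C and KRT16), against 7.51% and 4.72%. The counts of 0 came from limma with the 2-fold minimum, and at an unadjusted p under 0.05 without it 1 member (KRT6A) was higher at d10 and 2 (KRT14 and KRT6A) at d20. DESeq2 and edgeR on the recovered reads also called 0 members higher on both days. When all libraries were instead scaled to equal totals, the median of all genes moved to between -0.20 and -0.14, and members called higher went to 0 at d1 and 2 at d7. The share of calls over all genes that were higher went from 62.5% to 47.6% at d1, from 65.8% to 48.3% at d4, from 75% to 59.2% at d7, from 48.6% to 34.8% at d10, from 57.5% to 45% at d15 and from 61.4% to 47.6% at d20. Relative to that median each member was within 0.04 of its main log2 fold change. The median log2 fold change of the 8 members was -0.51 on d1, -0.18 on d4, 0.56 on d7, -1.52 on d10, 0.09 on d15 and -1.12 on d20, while the median over all genes tested stayed between -0.00 and 0.03.

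**Figure D2:**
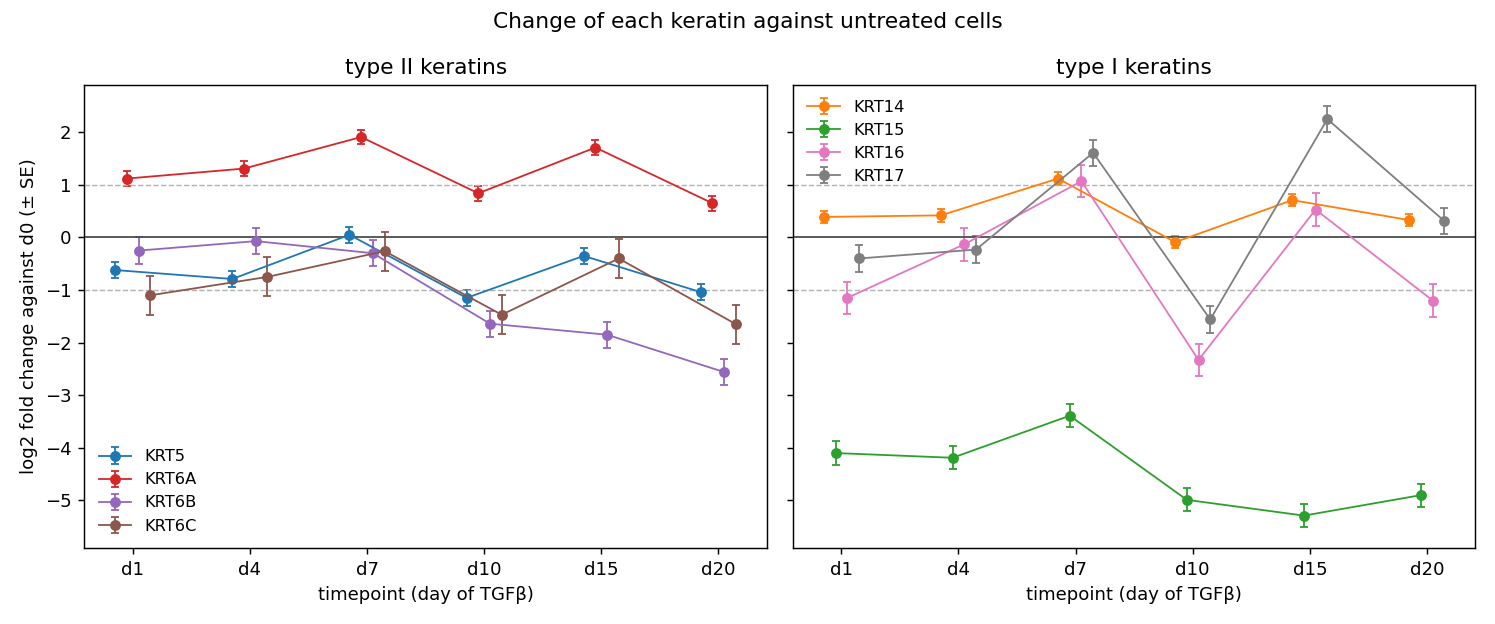
Log2 fold change of each keratin against d0 (vertical axis, with its standard error as bars) on each treated day, with type II chains on the left and type I chains on the right. Dashed lines mark a 2-fold change. KRT6A lies above 0 and KRT15 far below 0 on every day, and KRT16 and KRT17 swing between d7, d10 and d15.

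From one timepoint to the next, the set moved most, by its median log2 fold change (-1.27) and by its calls, from d7 to d10. Between d1 and d4, 1 member was called higher (KRT16) and none lower, against 4.19% and 1.98% of all genes, and this call was lost when the third d1 library was left out and with edgeR. Between d4 and d7, 2 were higher (KRT16 and KRT17) and none lower, against 2.27% and 1.51%. Leaving out 1 d7 library moved that count of 2 to 1 without the first library, 1 without the second, and 5 without the third (KRT5, KRT15, KRT6C, KRT16 and KRT17). Between d7 and d10, all 8 members were called lower and none higher, where 9.09% of all genes were lower and 3.63% higher. All 8 were also called lower there without the third d7 library, but 6 were without the first and 6 without the second, and 4 under quantile normalisation. Between d10 and d15, 3 were higher (KRT6C, KRT16 and KRT17) and none lower, against 12% and 10.2% of all genes. Between d15 and d20, 4 were lower (KRT6A, KRT6C, KRT16 and KRT17) and none higher, against 7.43% and 7.55%. Each count of none in these 5 comparisons was also 0 at an unadjusted p under 0.05 in limma and with edgeR and DESeq2.

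KRT5, the basal type II chain, fell early, returned at d7 and was at its lowest at d10. Its normalised read counts in the 3 libraries were 215354, 225595 and 232097 at d0, 148585, 146186 and 142371 at d1, and 132324, 129346 and 126682 at d4. At d7 they were 298352, 281986 and 149134. The third d7 library lay near the d1 level, and the other d7 libraries lay above every d0 library. Counts at d10 were 102501, 100457 and 100869.9, at d15 178527, 173499 and 175401, and at d20 108717, 109661 and 109769. No library of d1, d4, d10, d15 or d20 reached the lowest d0 library. The log2 fold change against d0 was -0.62 (SE 0.15, adjusted p = 0.00106, limma) at d1, -1.15 (SE 0.15, adjusted p = 6.18e-07) at d10 and -1.04 (SE 0.15, adjusted p = 3.02e-06) at d20. At d7 it was 0.05 (adjusted p = 0.772, limma), and without the third library 0.37 (adjusted p = 3.19e-13). At d15 the log2 fold change of -0.35 had an adjusted p of 0.0359 in limma. It was no longer under 0.05 on leaving out the second d0 library, the third d0 library or any one d15 library, with an adjusted p of up to 0.0899.

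KRT14, the type I partner of KRT5, moved the other way at the start. Its counts were 70384, 74242 and 73695 at d0, 96763, 95621 and 93462 at d1, and 97720.5, 98815 and 95081 at d4. All libraries of d1 and d4 lay above all libraries of d0. Counts at d7 were 194493, 179577 and 112293, at d10 67769, 70434 and 67566, at d15 122899, 116002 and 118211, and at d20 93009, 90783 and 91298. KRT14 rose at d1 (log2 fold change 0.39, SE 0.12, adjusted p = 0.00656, limma), d4, d7, d15 (0.71, SE 0.12, adjusted p = 1.06e-05) and d20, although under quantile normalisation it was lower than d0 on each of these days, with log2 fold changes of -0.65 at d1 and -0.51 at d15. In that normalisation a value is set by rank, and KRT14 was the gene of rank 5 in every d0 library and of rank 7 to 18 in all treated ones. With libraries scaled to equal totals its d1, d4 and d20 differences did not pass the test (adjusted p = 0.126, 0.0795 and 0.291, limma). At d7 the log2 fold change was 1.12 (SE 0.12, adjusted p = 3.06e-08, limma), and 1.36 without the third library. At d10 KRT14 returned to a mean of 68589.7 ± 1600.4 (SD, n = 3), which overlapped d0 (log2 fold change -0.09, adjusted p = 0.527, limma). At d20 the log2 fold change of 0.33 had an adjusted p of 0.0164, and 0.0533 without the first d0 library (limma).

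KRT15, the other basal type I chain, showed the largest change of the set. Its counts were 19251, 18940.1 and 19362 at d0 and 1126, 1128 and 1102 at d1, a mean 17.1-fold lower (log2 fold change -4.10, SE 0.22, adjusted p = 5.21e-13, limma). At d7 they were 2583, 2514 and 941, the third library below d4 and the others above it. KRT15 reached 470.3, 492 and 511 at d15, 39.1-fold below d0 by the means (log2 fold change -5.29, SE 0.22, adjusted p = 2.77e-15, limma), and was 640.2 ± 2.89 (SD, n = 3) at d20. The lowest d0 library was above every treated library on every day. At 75 bases KRT15 shared no stretch of its transcript with any other keratin transcript, and at 50 bases 0.725% of its windows occurred in KRT13.

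KRT6A, a type II chain induced by injury, went up on the same first day. Its counts were 25216, 25530.5 and 26874 at d0, 57091, 56678 and 55341 at d1, and 64084, 65675 and 62832 at d4. Counts at d7 were 124568, 116608 and 63731, so that even the third library was above all of d0 and lay within the range of d4. At d10 they were 46354, 46044 and 46527, at d15 86019.7, 84054 and 84231, and at d20 40294, 40573 and 40521. No treated library overlapped d0. KRT6A rose on all 6 days, with log2 fold changes of 1.12 (SE 0.14, adjusted p = 5.61e-07, limma) at d1, 1.91 at d7 and 1.71 (SE 0.14, adjusted p = 3.31e-10) at d15. The smallest were 0.84 at d10 and 0.65 (SE 0.14, adjusted p = 0.000409, limma) at d20, under 2-fold. Every alternative tried kept the direction and an adjusted p under 0.05 for KRT6A and for KRT15 on each of the 6 days.

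KRT6B and KRT6C, the close copies of KRT6A, were far lower in signal, and neither rose on any treated day with all libraries in the fit. KRT6B had counts of 780.5, 832 and 856 at d0, 933, 999 and 321 at d7, and 142, 144 and 129 at d20. At d20 it was 5.94-fold below d0 (log2 fold change -2.56, SE 0.25, adjusted p = 1.07e-08, limma), and its log2 fold changes were -1.64 at d10 and -1.85 at d15. On d1, d4 and d7 it did not pass the test, with values of -0.25, -0.07 and -0.30 on the same scale (adjusted p = 0.408, 0.808 and 0.299, limma), although at d1 the adjusted p was 0.00517 without the third d7 library. Without the third d7 library its d7 value was 0.23 (adjusted p = 0.0165, limma), the opposite sign. KRT6C had 40, 28.8 and 28.7 at d0, 14.6, 20.5 and 9.92 at d1, and 9.54, 8.42 and 10.8 at d20. Its log2 fold change was -1.10 (SE 0.37, adjusted p = 0.014, limma) at d1 and -1.65 (SE 0.37, adjusted p = 0.000557) at d20. The d1 call was lost without the first d0 library (adjusted p = 0.0624, limma) or the third d1 library (adjusted p = 0.0812). With 10 instead of 1 added to the counts, the d1 log2 fold change of KRT6C was -0.78, under 2-fold.

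The 3 KRT6 genes cannot be separated cleanly by short reads. Of the 75-base windows along each transcript (GENCODE 29), 26.2% for KRT6A, 34.9% for KRT6B and 42.9% for KRT6C occurred letter for letter in another keratin transcript, and at 100 bases 18.2%, 24.6% and 31.7% did. The read length is not given in the sources used here. KRT6B had 3.18% of the reads of KRT6A at d0, 1.23% at d1 and 0.342% at d20, and KRT6C 0.126%, 0.0266% and 0.0237%. Summed, the KRT6 genes went from 26729 ± 909 (SD, n = 3) in untreated cells to 57078 ± 923 at d1, 85021 ± 1109 at d15 and 40611 ± 146 at d20. The sum therefore rose at d20 (log2 fold change 0.60, SE 0.14, adjusted p = 0.000803, limma) while KRT6B and KRT6C taken alone fell. How reads common to these genes were assigned was not tested.

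KRT17, a type I chain of injured epidermis and of basal breast epithelium, had the widest swings among the abundant members. Its counts were 37285, 38925 and 41718 at d0, 30367, 29411 and 29539.7 at d1, and 33397, 34185 and 32934 at d4. The d1 and d4 libraries all lay below d0, but the difference did not pass the test (-0.40 and -0.23 on the log2 scale, with adjusted p = 0.178 and 0.422, limma). Without the third d7 library the adjusted p was 9.16e-13 and 3.58e-07. At d7 the counts were 184224, 169632 and 55169, and the third library was again the lowest. At d10 they were 13034, 14213 and 12669, at d15 186759, 181902 and 191369, and at d20 50468, 47899 and 47786. Against d0 the log2 fold change was 1.61 (SE 0.25, adjusted p = 8.87e-06, limma) at d7, or 2.17 without the third library, then -1.56 (SE 0.25, adjusted p = 1.2e-05) at d10 and 2.25 (SE 0.25, adjusted p = 4.92e-08) at d15. From d10 to d15 KRT17 went up 14-fold by the means (log2 fold change 3.81, SE 0.25, adjusted p = 9.14e-12, limma). At d20 it was 0.31 (adjusted p = 0.291, limma) with all libraries in the fit and had an adjusted p of 6.07e-10 without the third d7 library, whose spread enters the test of every day.

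KRT16, which pairs with KRT6 chains in injured epithelium, was also high at d7 and lowest at d10, but unlike KRT17 it was called lower at d1 and d20. Its counts were 4418, 4534 and 4138 at d0, 2068, 1998 and 1839 at d1, and 4035, 3925 and 3999.9 at d4. They were 15422, 14111 and 3515 at d7, the third library below and the others above every d0 library. Counts at d10 were 889, 926 and 788, the lowest of the course. At d15 they were 6363, 6166 and 6319.9, and at d20 1899, 1853 and 1929. KRT16 fell at d1 (log2 fold change -1.15, SE 0.31, adjusted p = 0.00298, limma), d10 (-2.33, adjusted p = 8.98e-07) and d20 (-1.20, adjusted p = 0.00189). It rose at d7 (1.07, SE 0.31, adjusted p = 0.00437, limma), a call that was lost when only d0 and d7 were fitted (adjusted p = 0.105) and whose log2 fold change was 0.69 without the first d7 library, under 2-fold, and 1.76 without the third. At d15 all 3 libraries were above d0 but the adjusted p was 0.125 (log2 fold change 0.53, limma), and 3.17e-14 without the third d7 library.

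Reads of KRT14, KRT16 and KRT17 can also be shared. At 75 bases, 10% of the KRT14 windows, 9.68% of the KRT16 windows and 4.57% of the KRT17 windows occurred in another keratin transcript, pseudogenes included, and for KRT5 2.44% did. The listed pseudogenes KRT16P2 and KRT16P3 had at most 18 and 24 reads in a library. No KRT17 pseudogene was among the 4 keratin pseudogenes measured, although 2.63% of the KRT17 windows of 75 bases occurred in KRT17P3. KRT14, KRT16 and KRT17 summed to 116446 ± 3887 (SD, n = 3) in untreated cells, 82763 ± 2457 at d10 and 311997 ± 6866 at d15. The sum fell at d10 (log2 fold change -0.49, SE 0.17, adjusted p = 0.0166, limma) and rose at d15 (1.42, SE 0.17, adjusted p = 1.95e-07), the directions of KRT17 alone.

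The order of the days differed between members. By mean, d7 was the highest day for KRT5, KRT14, KRT6A and KRT16, d15 for KRT17, and d0 for KRT15, KRT6B and KRT6C. The lowest day was d10 for KRT5, KRT14, KRT16 and KRT17, d15 for KRT15, d0 for KRT6A, and d20 for KRT6B and KRT6C. Neighbours in this order whose libraries overlapped were d7 and d0 for KRT5, and d7 and d15 for KRT6A, KRT16 and KRT17. For KRT14 they were d7 and d15, d4 and d1, and d0 and d10. KRT15 had d7 and d1, and d20 and d10, and KRT16 also had d1 and d20. KRT6B had 4 overlapping pairs of 6, and KRT6C, with the fewest reads, had 5. The highest day mean over the lowest was 2.4 for KRT5, 2.36 for KRT14, 3.93 for KRT6A, 14 for KRT17, 12.7 for KRT16 and 39.1 for KRT15.

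The make-up of the set shifted away from KRT5. Per kilobase of coding length, KRT5 was 52.5% of the summed signal of the 8 genes at d0, 39.5% at d1, 26% at d15 and 32.5% at d20. KRT14 was 21.3% at d0 and 34.1% at d20. KRT6A was 6.34% at d0, 16% at d1 and 18.9% at d10, and KRT15 went from 5.81% to 0.392% at d1. KRT17 was 12.6% at d0, 7.1% at d10 and 37.7% at d15, when it was the largest part. These shares are levels per coding length averaged over 3 libraries, and the third d7 library is included.

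**Figure D3:**
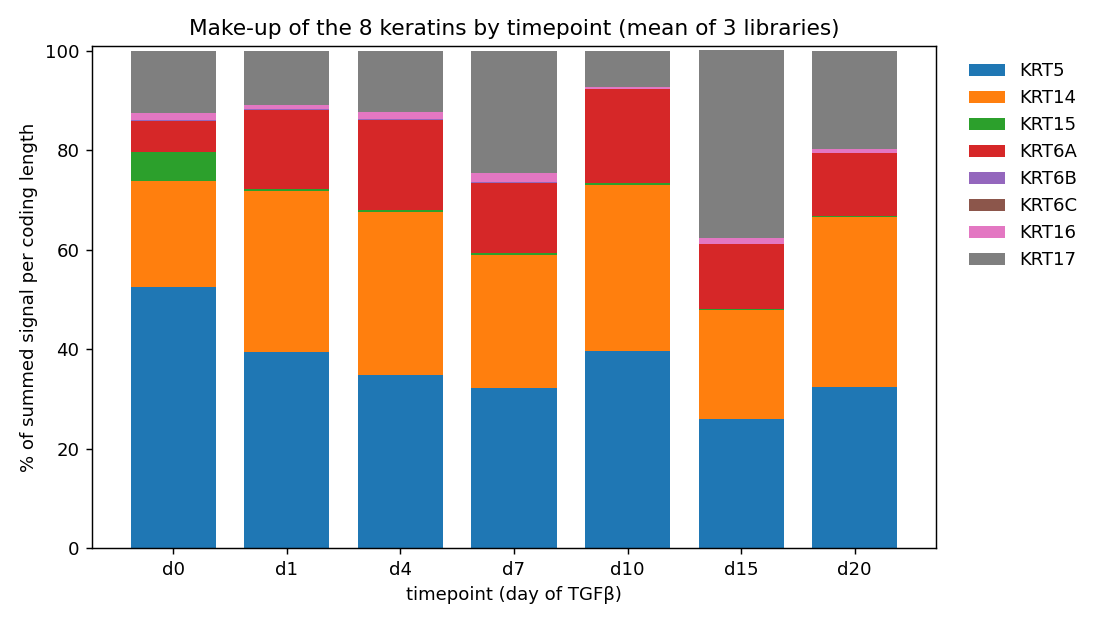
Share of each keratin in the summed signal per coding length of the 8 genes (vertical axis, percent) at each timepoint (mean of 3 libraries). KRT5 narrows from 52.5% at d0 to 26% at d15 and KRT17 widens to 37.7% at d15.

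Ratios taken within a library do not depend on its size factor. They were compared with d0 by a two-sided exact permutation test, and 24 such comparisons were made (4 ratios on 6 days). With 3 libraries against 3 the smallest p such a test allows is 0.1, so none can pass 0.05 and adjustment cannot lower it. The ratio is of normalised read counts without a length correction, so only its change is read.

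The KRT14 to KRT5 ratio changed within 1 day and stayed changed. Its log2 value was -1.62 ± 0.03 (SD, n = 3) in untreated cells, -0.61 ± 0.01 at d1, -0.56 ± 0.04 at d10, -0.56 ± 0.02 at d15 and -0.25 ± 0.03 at d20. Every treated day lay above every d0 library, by 1.01 at d1 to 1.37 at d20 (exact permutation p = 0.1 each). The third d7 library had -0.41 and the other d7 libraries -0.62 and -0.65.

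KRT6A against KRT5 moved further in the same direction. This log2 ratio was -3.12 ± 0.03 (SD, n = 3) in untreated cells, -1.37 ± 0.01 at d1 and -1.43 with an SD of 0.00 at d20, and it was between -1.44 and -0.98 in every treated library. At d7 the libraries had -1.26, -1.27 and -1.23, so the third d7 library did not stand apart in this ratio although its KRT5 and KRT6A counts were both low. The rise over d0 was 1.68 at d20 to 2.10 at d4 (exact permutation p = 0.1 each).

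The KRT17 to KRT14 ratio swung in both directions. It was -0.89 ± 0.06 (SD, n = 3) in untreated cells, -1.68 ± 0.02 at d1, -2.37 ± 0.05 at d10, 0.65 ± 0.05 at d15 and -0.91 ± 0.03 at d20. At d7 the libraries had -0.08, -0.08 and -1.03, which overlapped d0 (exact permutation p = 0.4), and at d20 the range also overlapped d0 (exact permutation p = 0.6). On d1, d4 and d10 every library was below d0 and on d15 every library was above it (exact permutation p = 0.1 each).

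Within the set, type I members together gained on type II members. The log2 ratio of the summed type I members (KRT14, KRT15, KRT16 and KRT17) to the summed type II members (KRT5, KRT6A, KRT6B and KRT6C) was -0.89 ± 0.01 (SD, n = 3) in untreated cells, -0.66 ± 0.01 at d1 and -0.52 ± 0.01 at d4. At d7 it was -0.10, -0.13 and -0.31. It returned to -0.83 ± 0.05 at d10, went to 0.26 ± 0.02 at d15 and was -0.07 ± 0.03 at d20. No treated day overlapped d0, and the difference was 0.06 at d10 and 1.15 at d15 (exact permutation p = 0.1 each). Keratins outside the set are not in these sums, among them the abundant type II chain KRT7, whose rise is given below. The ratio over all keratins was not tested.

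**Figure D4:**
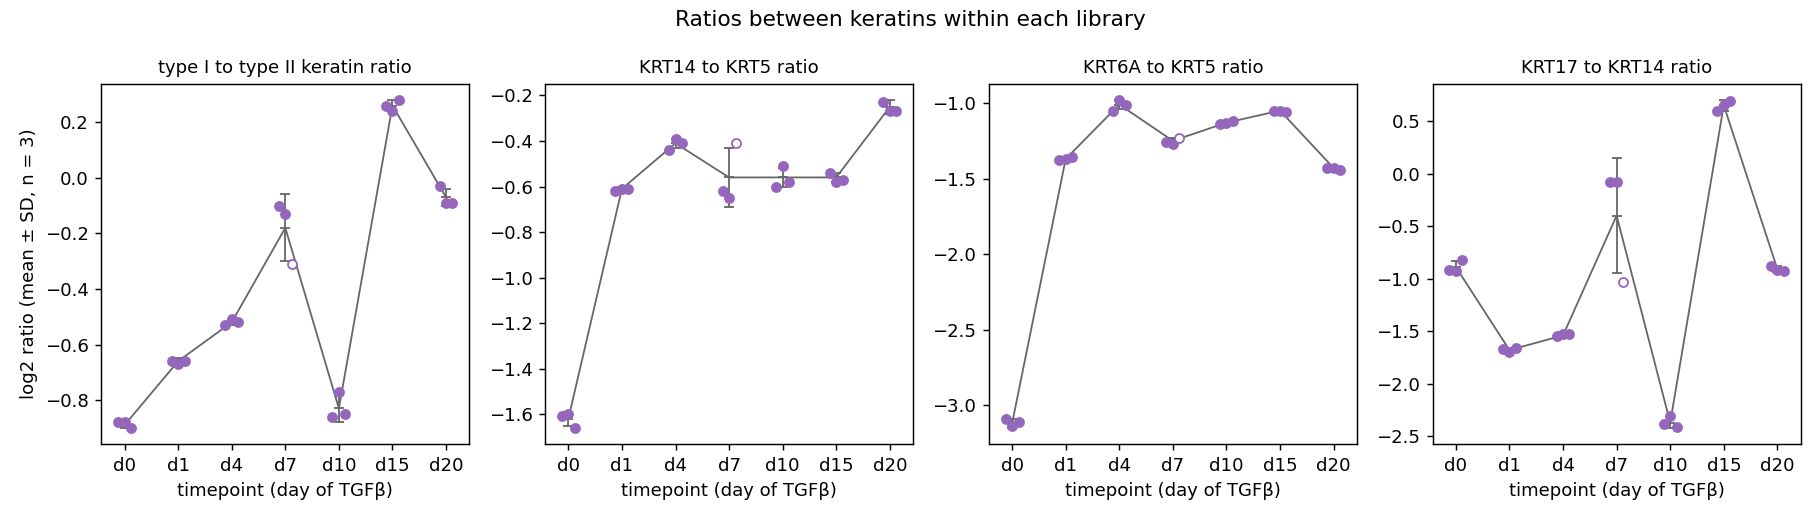
Log2 ratios within each library (vertical axes, a separate scale for each panel) against timepoint. Points are libraries, the open point is the third d7 library, and bars show the mean and SD of 3 libraries. KRT14 to KRT5 and KRT6A to KRT5 step up at d1 and stay up, and KRT17 to KRT14 runs from -2.37 at d10 to 0.65 at d15.

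Likeness between genes was described by the root mean square difference of the 6 log2 fold changes against d0, over 6 days that share the same d0 libraries. Among members the nearest were KRT5 and KRT6C (0.37), and KRT5 lay 1.14 from its partner KRT14. In nearness over all genes tested, KRT6C ranked 249 for KRT5, and KRT5 ranked 69 for KRT6C, which had only 8 to 45 reads per library. KRT14 and KRT6A differed by 0.81, KRT16 and KRT17 by 1.06, and KRT6A and KRT6B by 2.51. KRT16 was nearer to KRT5 (0.81) than to KRT17, and KRT17 was nearer to KRT14 (0.99) than to KRT16. By the same ranking KRT6A was 7754 for KRT14, and KRT14 was 1144 for KRT6A. KRT15 was at least 3.41 from every other member. Of all other genes tested, KRT14 was nearest to KRT19 (0.10), EPSTI1 (0.12) and SPATA6 (0.12). KRT5 was nearest to LOC100128338 (0.12), ALDH4A1 (0.15) and TUBBP5 (0.16), and KRT6A to PDLIM3 (0.16), BMP1 (0.23) and PSG4 (0.24). KRT17 was nearest to WDR63 (0.41), ACER2 (0.45) and GAL3ST4 (0.46), KRT16 to TSHZ2 (0.27), LOC441869 (0.33) and SLC9A9 (0.34), and KRT6C to RARG (0.18), C21orf91 (0.19) and HESX1 (0.21). KRT6B was nearest to TFCP2L1 (0.39), RAPGEF5 (0.46) and HSD11B2 (0.48), and KRT15 to PRR15L (0.64), SPRR1A (0.70) and LZTS1 (0.77).

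Among the simple and other keratins, 10 of the 15 listed genes passed the filter. At d20, 2 were called higher (KRT7 and KRT86) and 1 lower (KRT13), with a list median log2 fold change of 0.12 against -0.00 over all genes. On that day 7.51% of all genes were called higher and 4.72% lower. KRT7, a type II chain of simple ducts, went from 13120.1 ± 387 (SD, n = 3) in untreated cells to 66420.3 ± 1092 after 1 day and 89494 ± 3628 at d10 (log2 fold change 2.77, SE 0.14, adjusted p = 2.89e-13, limma). It was thus highest on the day when KRT5, KRT16 and KRT17 were lowest. KRT13, a mucosal type I chain, fell from 582 ± 36.2 to 42.3 ± 6.87 at d1 and 3.94 ± 2.02 at d10. KRT18, the simple type I chain, was called lower against d0 only at d7 (log2 fold change -1.19, all d7 libraries included). Its log2 fold change was 0.01 at d1, -0.03 at d10 and -0.75 at d15. KRT80 fell by 1.77 at d15 on the log2 scale, and the hair-type chains KRT81 and KRT86 rose by 1.84 and 2.82 on that day.

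Among the 12 genes that tie keratin filaments to the membrane, all were tested, and ITGB4, ITGA6 and COL17A1 of the hemidesmosome rose while PPL and EVPL fell. PLEC rose on every treated day, by 0.70 at d15 to 1.14 at d10 on the log2 scale. DSP (0.82 at d7 and -0.49 at d20) and DST (0.73 at d15 and -0.68 at d10) went both ways. At d20, 3 were called higher (ITGB4, ITGA6 and PLEC) and 2 lower (EVPL and PPL), against 7.51% and 4.72% of all genes, with a median of -0.23. ITGB4, the integrin chain that binds plectin, went from 12714 ± 150.1 (SD, n = 3) in untreated cells to 83564 ± 2617 at d15 (log2 fold change 2.72, SE 0.06, adjusted p = 3.46e-19, limma). COL17A1, a hemidesmosome collagen, rose by 1.35 at d4 and 1.27 at d15, and ITGA6, the partner of ITGB4, by 1.56 at d10. Periplakin (PPL) went from 5709 ± 144 to 580.1 ± 37.4 at d10 and 4245 ± 82.6 at d15, so its trough fell on the same day as those of KRT16 and KRT17. Envoplakin (EVPL) fell by 3.07 at d10 and 2.55 at d20 on the log2 scale.

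All 14 listed transcription factors known to act on basal or stress keratin genes were tested. At d15, 4 were called higher (GLI2, JUN, JUNB and KLF4) and 2 lower (TFAP2C and GRHL3), against 11.7% and 8.66% of all genes, with a median of 0.33. At d10, 4 were higher (GLI2, JUN, FOSL1 and JUNB) and 3 lower, against 6.94% and 7.34% of all genes, with a median of -0.22. JUNB, an AP-1 subunit, was 1264 ± 63.3 (SD, n = 3) in untreated cells, 2923 ± 123 at d10 and 10062 ± 214 at d15 (log2 fold change 2.99, SE 0.12, adjusted p = 3.85e-15, limma). JUN rose by 2.61 at d1 and 3.07 at d15, and GLI2, a Hedgehog pathway factor, from 3.98 ± 1.27 to 50.4 ± 5.07 at d20. The epithelial factor GRHL3 fell from 129 ± 4.15 at d0 to 5.56 ± 1.49 at d10 and was 32.2 ± 2.74 at d15, GRHL2 fell by 2.34 at d20, and TFAP2C fell by 2.99 on that day.

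The wound and stress response list of keratinocytes, of which 13 of 17 genes passed the filter, went both ways. IVL, IL1A and AREG were called higher on all 6 treated days, and SPRR1A, S100A8, S100A9 and PI3 were called lower on all 6. At d15, 3 were called higher (AREG, IL1A and IVL) and 6 lower (SPRR1A, SPRR1B, PI3, S100A9, S100A8 and HBEGF), where 11.7% and 8.66% of all genes were, with a list median of -0.52. At d10, 4 were higher and 7 lower, against 6.94% and 7.34% of all genes, with a median of -1.88. IVL, an envelope precursor, went from 109 ± 17.7 (SD, n = 3) in untreated cells to 1332 ± 49 at d1 (log2 fold change 3.61, SE 0.12, adjusted p = 3.22e-16, limma) and 238 ± 4.26 at d15. IL1A rose by 2.42 at d4, and AREG, an EGF receptor ligand, by 3.25 at d15. SPRR1A, a small proline-rich envelope protein, fell from 242 ± 2.27 to 5.61 ± 2.22 at d15, SPRR1B fell by 3.87 on that day, and the elastase inhibitor PI3 fell by 3.67.

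Of the 7 other intermediate filament genes, 6 were tested. Vimentin (VIM) went from 5181 ± 72.9 (SD, n = 3) in untreated cells to 31268 ± 396 at d1 and 63815 ± 1949 at d20 (log2 fold change 3.62, SE 0.08, adjusted p = 4.31e-20, limma), and NES from 3.02 ± 2.67 to 37.4 ± 1.63 at d20. Vimentin thus rose in the same libraries in which KRT6A rose and KRT5 fell at d1. LMNB1, a nuclear lamin, fell by 1.87 at d15 on the log2 scale. At d20, 2 of the 6 (VIM and NES) were called higher, against 7.51% of all genes, with a median of 0.38.

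**Figure D5:**
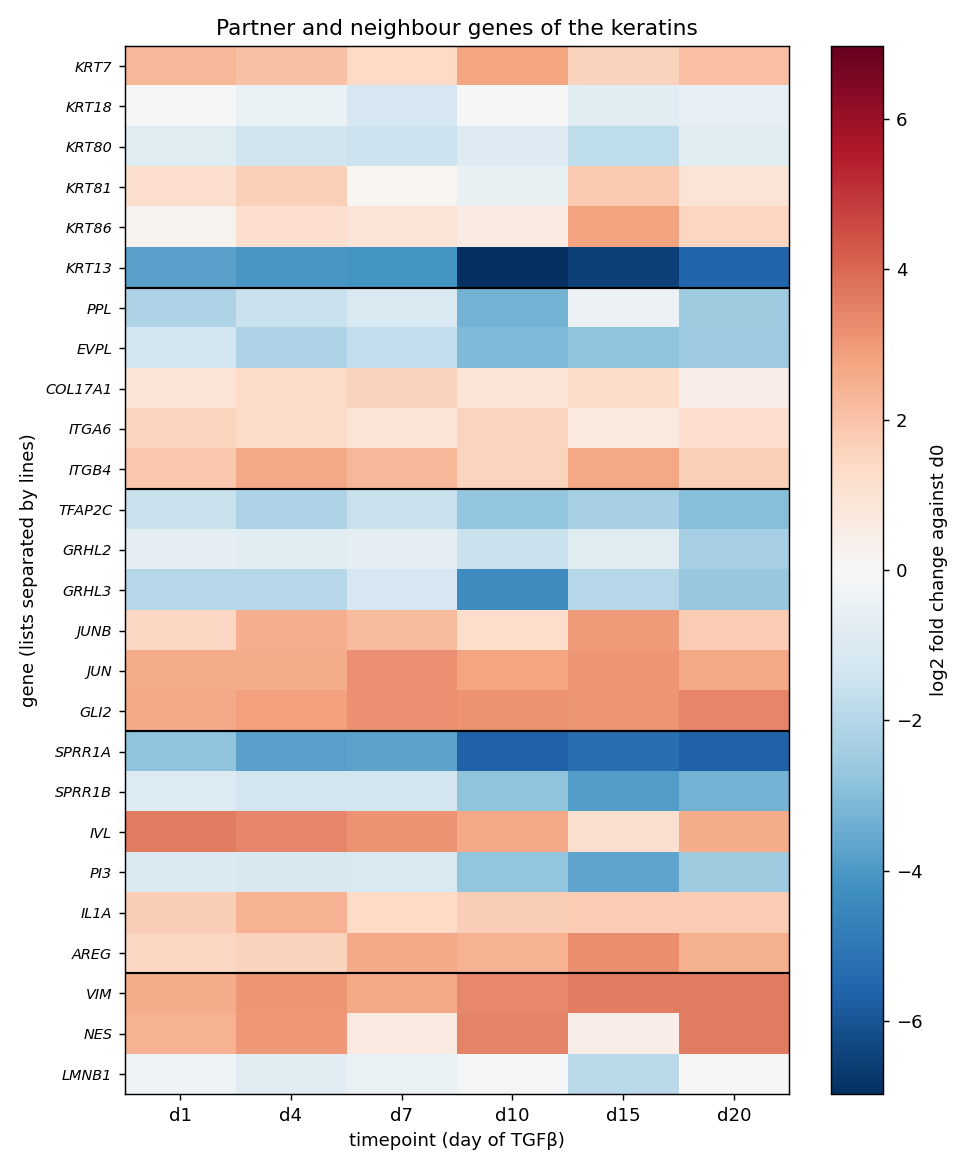
Log2 fold change against d0 (colour, red higher and blue lower) of the genes named from the 5 lists (rows, lists divided by lines) on each treated day (columns). From the top the lists are simple and other keratins, filament linkers, transcription factors, wound and stress genes, and other intermediate filaments, and the darkest blue is KRT13 at d10.

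Proliferation genes were lowest at d15, when KRT17 was highest, but were also low at d4, when KRT17 lay below d0. The 13 listed genes (MKI67, TOP2A, CDK1, CCNB1, AURKA, BIRC5, PCNA and MCM2 to MCM7), all detected in every library, summed to between 74949.8 and 78276 at d0, 43229 and 44628 at d4, 71998 and 72791 at d10, 23439 and 24022 at d15, and 71262 and 73655 at d20. At d7 the sum was 47668 and 49090.2 in the first and second libraries, which had the higher KRT16 and KRT17, and 63700.3 in the third. Their part in the keratin results was not tested. In bulk RNA, more cells with a keratin and more of its RNA in each cell cannot be told apart.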

How the data were processed

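RNA was measured in 21 HMLE libraries, described by the study as biological triplicates at 7 timepoints. The deposited signal values are reads per gene divided by 1 size factor per library, made by the authors and rounded to 2 decimals. STAR 2.7, Salmon 1.4 and hg19 are listed in the submitters' processing notes without a role, and the normalisation tool is not given in the sources used here. Whole reads were recovered for 100% of the low positive values checked in every library (within 0.1 reads). Higher values, including every value of KRT5, KRT14, KRT6A and KRT17, were rounded to whole reads without that check. Libraries held 18847917 to 22667754 reads. Because values are normalised, the main test was limma 3.58.1 (R 4.3.3) on log2(value + 1), 1 mean per timepoint, trended variance, genes with a mean of at least 10 (13343), and Benjamini-Hochberg adjustment in each contrast. A fold change on this scale understates the change of low genes such as KRT6C. edgeR 4.0.16 and DESeq2 1.42.0 on the recovered reads were alternatives. Scripts were tested on simulated data. The table's columns carry a timepoint and no replicate number, so libraries are numbered by place. Members, lists and motifs were chosen with earlier results of these data known. All members are named, and from each list up to 3 genes with the largest called rise and 3 with the largest called fall, and the 3 nearest genes to each member. Coding lengths came from GENCODE 29 and the promoter from RefSeq (GRCh38.p14).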

Additional observations from a re-analysis of the deposited data

Results flagged for a closer look

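KRT16 and KRT17 were called higher than d0 on one day and lower on another, and the direct contrast of those days passed the test. These pairs of days were chosen by their opposite calls in the same fit, from which a passing direct contrast largely follows. The adjusted p values of these contrasts therefore add no support to the calls. KRT16 was higher at d7 than at d1 by 2.22 on the log2 scale (adjusted p = 2.51e-06, limma), than at d10 by 3.40 (adjusted p = 3.82e-09) and than at d20 by 2.27 (adjusted p = 2.39e-06). KRT17 was higher at d7 than at d10 by 3.17 (adjusted p = 5.51e-10, limma) and at d15 than at d10 by 3.81 (adjusted p = 9.14e-12). The d7 values include the third library, and without it the log2 fold change of d10 against d7 was -4.09 for KRT16 and -3.73 for KRT17. Groups of 3 libraries were not tested for single outlying libraries.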

How the results depend on the processing

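No paired analysis was possible because a column names its timepoint and not its replicate. Of 1392 alternative values of the log2 fold changes of single members against d0, 1319 kept the direction and the side of the threshold, 29 reversed, 16 lost and 28 gained an adjusted p under 0.05, with none of these for KRT15 or KRT6A. Many of these values came from leaving out a library of a day outside the contrast. Such a fit cannot change the log2 fold change or its direction, only its adjusted p. Of 1176 alternative values of counts and ratios, 1127 stayed within 1.5 times or within the replicate SD.

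Rescaling each library to the same total gave 0 members called higher at d1 and 2 at d7, 1047 and 624 genes called lower over all genes at d4 and d7, and -0.14 for KRT5 at d7. Quantile normalisation gave 0 members higher at d1 and 1 at d7, 2 lower at d4, and 4 lower between d7 and d10. It reversed KRT14 (-0.65 at d1, -0.83 at d4, -0.40 at d7, -0.51 at d15 and -0.87 at d20), KRT5 at d7 (-0.74) and KRT17 at d20 (-0.12). With no filter on low values, more genes entered the fit and 859, 1023, 667, 1470 and 1003 genes were called lower at d1, d4, d7, d10 and d20. With no minimum fold, members called higher were 2 at d1, 2 at d4, 1 at d10, 2 at d20, 6 between d4 and d7 and 6 between d10 and d15, and members called lower were 2 at d4 and 7 between d15 and d20. Over all genes the counts were then 4174, 4929, 4617, 4939, 5236 and 4341 higher and 3804, 4710, 4348, 4101, 4972 and 4024 lower at d1, d4, d7, d10, d15 and d20. Of the 13343 genes tested, 3406 were higher between d4 and d7, 5246 higher between d10 and d15, and 4850 lower between d15 and d20. Only d4 and d7 in the fit gave 1 member higher between them, and edgeR gave 0 between d1 and d4. Except for the filter and the fold minimum, the cause was not tested.

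With paralogs summed each member takes the value of its sum, which KRT6A and KRT14 or KRT17 dominate. Members called higher became 3 at d1, 3 at d4, 6 at d15 and 0 between d1 and d4, and members called lower 1 at d1, 2 at d10, 1 at d15 and 2 at d20. KRT6B and KRT6C took 1.09, 1.28, 1.88, 0.80, 1.67 and 0.60 on the 6 treated days in order. KRT16 took 0.13 at d1, 0.21 at d4 and 0.29 at d20, and KRT17 0.13 at d1 and 0.21 at d4.

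Leaving out 1 library gave 2 to 4 members called higher at d7, 0 to 1 between d1 and d4, and 1 to 5 between d4 and d7, with 6 to 8 called lower between d7 and d10, and the KRT17 to KRT14 ratio at d20 was -0.04 to 0.01 against d0. At d7, KRT5 was -0.13, -0.09 and 0.37 without the first, the second and the third d7 library, and without 1 library KRT6B ranged from -0.59 to 0.23 and KRT6C from -0.57 to 0.34, each positive without the third. For KRT6C, 8 to 45 reads per library limit every comparison.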
